A study of Mus musculus with 4 samples.

Results

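The interferon-gamma induced GTPases and their activator Irf1 were followed in regenerating mouse liver. Their 9 members were fixed by gene symbol, namely Igtp, Irgm1, Irgm2, Iigp1, Tgtp1, Gbp2, Gbp3, Gbp7 and Irf1, and each was read from the array probe sets that carry its symbol alone. This gave 11 probe sets for 8 of the 9 members, of 18193 genes named in this way on the array. Tgtp1 shares its probe set with Tgtp2, so no value was assigned to it. All 11 probe sets passed the filter on dim signals, a mean of at least 11.6, and the lowest member signal on any array was 33.4.

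The study measured liver RNA on 4 single-colour Affymetrix arrays, 2 per group. Every mouse was a BALB/c nu/nu nude mouse, a strain without a thymus and largely without mature T cells, and had received 23 injections of carbon tetrachloride, a liver toxin, at 0.25 ml/kg. In both groups 1000000 human bone marrow mesenchymal stem cells were injected into the spleen, partial hepatectomy was done on day 21, and the regenerating liver was collected 8 days after it. The EGFP group received cells that expressed the green fluorescent protein EGFP as control, and the OGFRL1 group received cells that expressed OGFRL1. The labels give no age or sex, mention an albumin solution in buffer without saying which mice received it. Whether the 2 arrays per group stand for different animals is not stated, and expression of the transgene was not checked here. P-values therefore measure only the spread between these arrays, which may be technical. Values are MAS5 signals, a linear measure of probe brightness that the authors scaled per array. The hepatocyte transcript Alb was bright on all arrays (7041 to 16107).

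Interferon-gamma is a cytokine made mainly by natural killer cells and T cells. It binds the receptor formed by Ifngr1 and Ifngr2, the kinases Jak1 and Jak2 pass the signal on, and Irf1 and other genes are switched on through a DNA element called GAS. Irf1 in turn acts through the interferon-stimulated response element, ISRE. Among the most strongly induced targets in mouse cells are 2 families of GTPases that defend cells against microbes living in vacuoles: the immunity-related GTPases (IRG), with the regulators Igtp (also called Irgm3), Irgm1 and Irgm2 and the effectors Iigp1 and Tgtp1, and the guanylate-binding proteins (GBP), here Gbp2, Gbp3 and Gbp7.

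The upstream sequences are shown so that the elements, which only some members have, can be read beside the values; any part of them in the values was not tested. Promoter windows from RefSeq (build GRCm38.p6) were matched for 8 of the 9 members, all but Iigp1, and the 250 bases before each start were searched on both strands for an ISRE core (GAAA, any 2 bases, GAAA) and a GAS element (TTC, any 3 bases, GAA). The ISRE core was found upstream of 7 of these 8 genes, all of them GTPases, and in 7 of their 10 windows. Over all genes it was found in 936 of 27025 genes and in 2.98% of the 32851 windows. A GAS element was found upstream of 5 of the 8, in Igtp, Irgm2, Tgtp1, Gbp7 and Irf1, and in 5 of the 10 windows. Over all genes it was found in 2197 of 27025 genes and in 7.02% of all windows. Stretches around these matches, for the 7 genes that also have array values, are printed 5′ to 3′ on the strand of the gene, with the matches in capitals. An ISRE core on the opposite strand reads TTTC, any 2 bases, TTTC. Matches of the ISRE core overlap each other in Irgm1 and Gbp3, and none overlaps a GAS element.
Igtp (chr11:58199496-58199546, plus strand): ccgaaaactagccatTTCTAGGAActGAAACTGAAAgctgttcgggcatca
Irgm2 (chr11:58214887-58214937, plus strand): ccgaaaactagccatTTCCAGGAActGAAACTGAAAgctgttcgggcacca
Irgm1 (chr11:48871421-48871465, minus strand): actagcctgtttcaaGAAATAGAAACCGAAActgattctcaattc
Gbp2 (chr3:142620589-142620628, plus strand): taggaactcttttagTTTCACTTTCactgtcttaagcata
Gbp3 (chr3:142559984-142560029, plus strand): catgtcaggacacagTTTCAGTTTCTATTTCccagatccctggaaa
Gbp7 (chr3:142530215-142530307, plus strand): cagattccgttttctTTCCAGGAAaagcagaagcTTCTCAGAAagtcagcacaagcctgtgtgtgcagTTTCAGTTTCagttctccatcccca
Irf1 (chr11:53769909-53769947, plus strand): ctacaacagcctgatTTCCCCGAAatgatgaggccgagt
Igtp and Irgm2 are neighbouring genes, and over the 50 bases centred on their ISRE core 48 were identical. Gbp7, Gbp3 and Gbp2 lie in one GBP cluster. The members are known interferon targets, so these shares describe the genes and test nothing, and the sequences come from the reference strain rather than from the mice used.

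None of the 8 members passed the threshold between OGFRL1 and EGFP livers (limma adjusted p from 0.209 to 0.881), where 0.511% of the 11942 genes tested were called. All 8 had a lower mean in the OGFRL1 group, with a median log2 difference of -0.88 against 0.04 over all genes, and 44.4% of all genes were lower in that group. In whole liver, fewer cells of a type and less RNA per cell cannot be told apart. At an unadjusted p under 0.05 limma gave 2 members, Iigp1 and Igtp, against 15.3% of all genes, 6.28% being lower in OGFRL1. The groups did not overlap, with both OGFRL1 arrays below both EGFP arrays, in 4 of the 8, the IRG genes Igtp, Irgm1, Irgm2 and Iigp1; over all genes this held for 20.5%. With each probe set fitted on its own, 0 of 11 passed (limma adjusted p from 0.223 to 0.886), where 0.336% of 20237 probe sets were called.

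One array, EGFP 1, carried much of the difference, though Igtp, Irgm1, Irgm2 and Iigp1 were also lower on both OGFRL1 arrays than on EGFP 2. EGFP 1 had the highest signal in all 8 members, which held for 28.4% of all genes. It was at least 2-fold above each of the other 3 arrays in all 8, which held for 44 of 11942 genes, or 0.368%. All 11 member probe sets showed the same. Between the 2 EGFP arrays the members differed by a median of 1.53 on the log2 scale, against 0.02 over all genes, and the 99th percentile of all genes was 1.48. Ranked by that difference, Gbp2 came 4th of 11942 genes, Igtp 32nd, Irgm2 63rd, and the lowest member, Iigp1, 208th. The members were chosen with earlier results of these data known, so these shares and ranks describe them and test nothing. The Cre spike-in controls, added RNA that is no part of the liver, had geometric mean signals (means taken on the log scale) of 9045 and 7875 on EGFP 1 and 2. On OGFRL1 1 and 2 they were at 5942 and 6637. These controls were thus lower on both OGFRL1 arrays than on both EGFP arrays. They are no measure of the quality of the liver RNA, and their part in the members' values was not tested. The dimmer BioB, BioC and BioD controls had geometric means of 473 and 498 on the EGFP arrays and 347 and 430.1 on the OGFRL1 arrays.

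**Figure D1:**
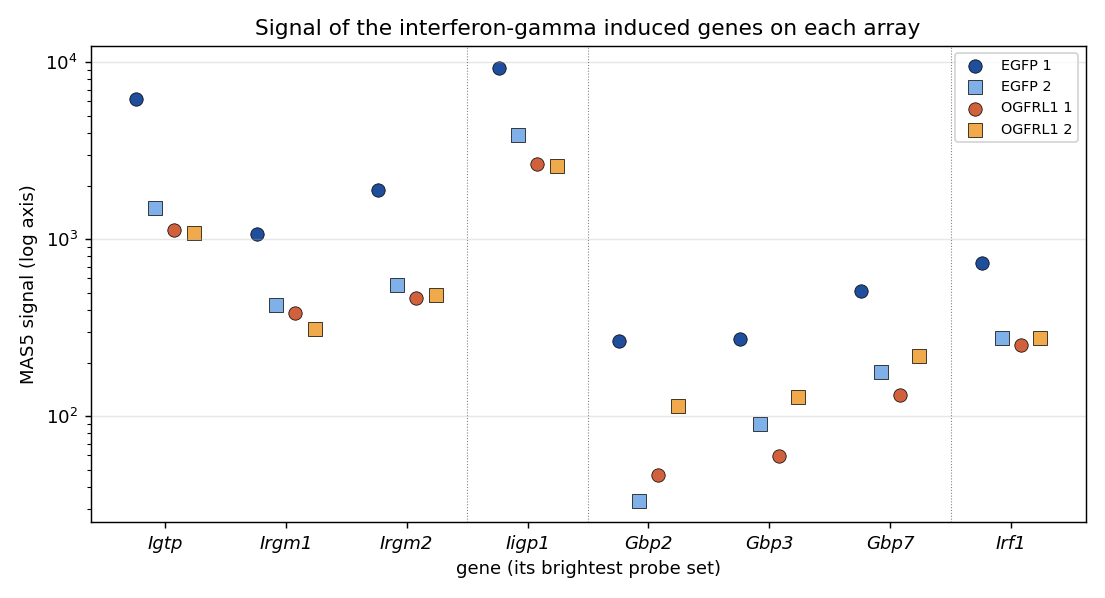
MAS5 signal (log axis) of each member's brightest probe set on the 4 arrays, 1 point per array, with dotted lines between the regulatory IRG genes, the effector Iigp1, the GBP genes and Irf1. EGFP 1 is the highest point for every gene, and in the GBP genes OGFRL1 2 comes next.

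**Figure D2:**
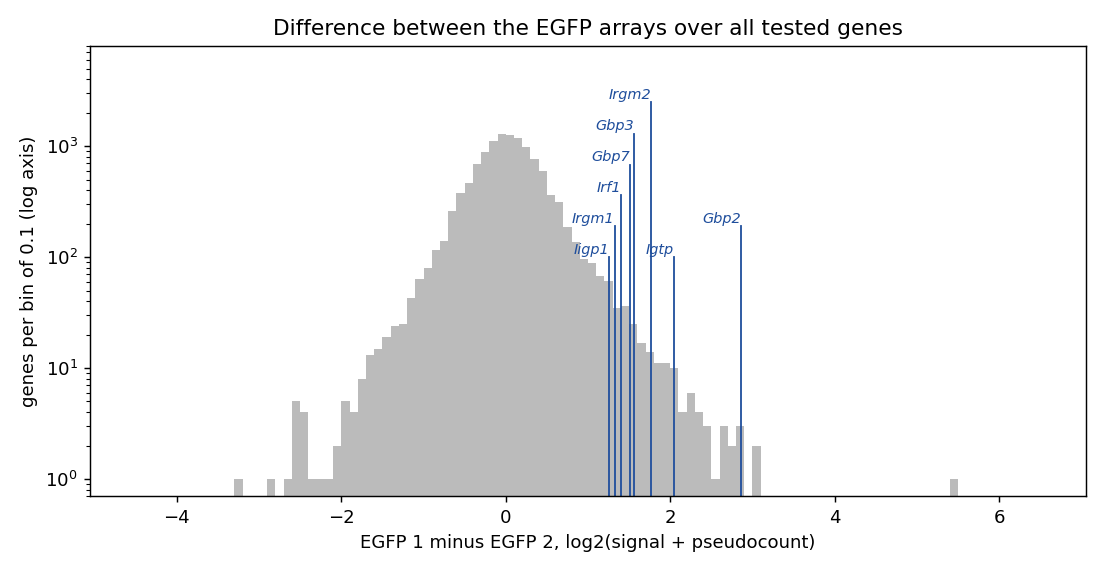
Histogram of the log2 difference between EGFP 1 and EGFP 2 over the 11942 genes tested (genes per bin on a log axis), with the 8 members marked by lines whose heights have no meaning. All members lie far to the right, from 1.26 for Iigp1 to 2.87 for Gbp2.

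Among the regulatory IRG genes, Igtp had signals of 6232 and 1508 on EGFP 1 and 2 and of 1122 and 1089 on OGFRL1 1 and 2. EGFP 1 stood 4.13-fold above EGFP 2, while the OGFRL1 arrays lay close together and below EGFP 2. The group means were 3869.8 ± 3340.4 (SD, n = 2) and 1106 ± 23.1, a log2 difference of -1.47 ± 0.58 (SE, limma adjusted p = 0.306). Irgm2 was at 1898 and 555 in EGFP livers and at 464 and 485 in OGFRL1 livers. Again EGFP 1 alone was high, 3.42-fold above EGFP 2, and the log2 difference was -1.11 ± 0.51 (adjusted p = 0.367). Irgm1, whose loss in mice impairs defence against mycobacteria, was at 1064 and 423 in EGFP livers and at 384 and 312 in OGFRL1 livers (-0.95 ± 0.40, adjusted p = 0.332). The effector Iigp1, which attacks the vacuole membrane around parasites such as Toxoplasma, was at 9327 and 3892 in EGFP livers and at 2664 and 2605 in OGFRL1 livers (-1.19 ± 0.37, adjusted p = 0.209). Its other probe set gave 3812 and 1599 against 1058 and 1157 (-1.16 ± 0.36 in the fit of probe sets). In Iigp1, as in Igtp, both OGFRL1 arrays were below EGFP 2 as well.

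The GBP genes shared the high EGFP 1 signal but ordered the other arrays differently. Gbp2 was at 265 and 33.4 on EGFP 1 and 2 and at 46.4 and 114 on OGFRL1 1 and 2. EGFP 2 was here the lowest array, so the groups overlapped fully (log2 difference -0.38 ± 0.88, limma adjusted p = 0.881). Gbp3 was at 272 and 90.1 in EGFP livers and at 59.4 and 128 in OGFRL1 livers (-0.82 ± 0.55, adjusted p = 0.544). Gbp7 was at 512 and 177 in EGFP livers and at 131 and 220.0 in OGFRL1 livers (-0.81 ± 0.49, adjusted p = 0.491). In all 3 GBP genes OGFRL1 2 was above both EGFP 2 and OGFRL1 1, and it exceeded OGFRL1 1 by 2.45-fold in Gbp2, 2.16-fold in Gbp3 and 1.67-fold in Gbp7. A ratio of at least 2 between these arrays in that direction was seen in 2.11% of all genes. In the 4 IRG genes the same ratio lay between 0.813 and 1.05. The second probe sets of Gbp2 and Gbp7 gave the same order of arrays. GBP genes are close paralogs whose transcripts may bind each other's probes, and the brightest Gbp2 probe set is of a type (x_at) that is not unique to one transcript, so the assignment within this family is uncertain.

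Irf1, the transcription factor of the list, was at 733 and 275 on EGFP 1 and 2 and at 252 and 278 on OGFRL1 1 and 2. The other 3 arrays were nearly level and EGFP 1 was 2.63-fold above the next, with a log2 difference of -0.76 ± 0.41 (limma adjusted p = 0.450).

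Leaving out EGFP 1 brought the median log2 difference of the members from -0.88 to -0.14, and leaving out EGFP 2 took it to -1.71, while the medians over all genes were 0.05 and 0.02. Each such fit leaves its EGFP arm with 1 array, which is assumed to vary like the OGFRL1 arrays. Without EGFP 1 the difference was -0.45 ± 0.12 for Igtp, -0.28 ± 0.17 for Irgm1 and -0.22 ± 0.14 for Irgm2, none of which passed. Iigp1 had -0.56 ± 0.11 and was called, in a fit that called 5.18% of all genes. Its other probe set had -0.53 in the fit of probe sets and was not called, so that call rested on the brighter probe set. Gbp3 (-0.04 ± 0.38), Gbp7 (-0.06 ± 0.28) and Irf1 (-0.06 ± 0.16) were near 0 without EGFP 1, and Gbp2 turned to 1.05 ± 0.44 (adjusted p = 0.233). Gbp2 also turned positive, to 0.23, without OGFRL1 1. Without EGFP 2 all 8 members were called, in a fit that called 7.17% of all genes, a comparison of EGFP 1 alone with the OGFRL1 livers.

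**Figure D3:**
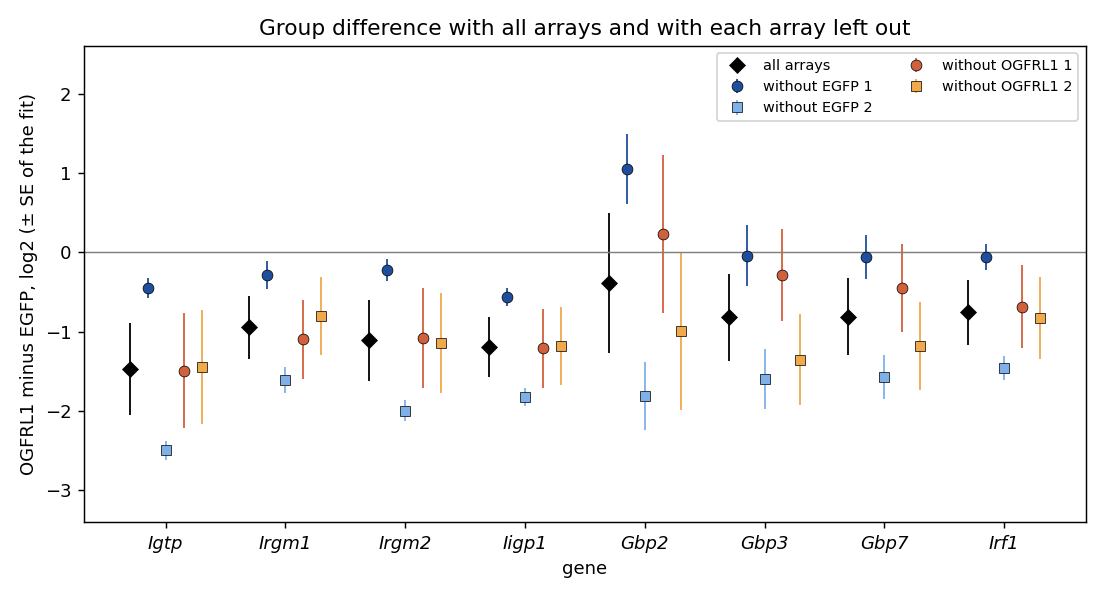
Log2 difference, OGFRL1 minus EGFP, of each member with all arrays (black) and with each array left out; bars are ± SE of the limma fit. Without EGFP 1 the values move toward 0, and Gbp2 lies at 1.05; without EGFP 2 they lie between -1.46 and -2.49.

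The other genes of the pathway were taken from lists chosen by function. The cytokine itself, Ifng, was below the filter, with signals of 3.68 and 2.75 in EGFP livers and 0.125 and 3.95 in OGFRL1 livers. These dim values allow no comparison. Neither receptor chain passed the threshold. Ifngr1 was at 186 and 143 against 196 and 204, with both OGFRL1 arrays above both EGFP arrays (0.29 ± 0.18, limma adjusted p = 0.503). Ifngr2 was at 71.9 and 61.1 against 43.8 and 66.6 (-0.28 ± 0.25, adjusted p = 0.662), the same order of arrays as in Gbp3 and Gbp7 over a narrower range. The kinases were nearly level over all arrays, Jak1 at 459.9 and 410.3 against 448 and 487 (0.10 ± 0.14) and Jak2 at 133 and 125 against 136 and 131 (0.05 ± 0.15). Of 12 signalling genes 9 were tested and 0 passed in either direction, with 3 lower in OGFRL1 and EGFP 1 the highest array in 3.

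Other GTPases of the same families were also highest on EGFP 1. Of 19 names searched, some of them older names of one gene, 4 were tested, 0 passed, all 4 were lower in OGFRL1 and EGFP 1 was the highest array in each. The IRG gene Ifi47 was at 1267 and 349 in EGFP livers and at 267 and 318 in OGFRL1 livers (-1.18 ± 0.53, limma adjusted p = 0.361). Gbp6 was at 998 and 221 against 137 and 219 (-1.42 ± 0.64, adjusted p = 0.359). Gbp2b was at 365 and 77.0 against 46.6 and 136, and Gbp8 at 122 and 47.0 against 39.3 and 77.1, both with OGFRL1 2 second as in the GBP members.

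Interferon-gamma targets outside these families followed EGFP 1 too. Of 26 genes 21 were tested and 0 passed, and 20 were lower in OGFRL1 (44.4% of all genes). EGFP 1 was the highest array in 21 of 21 (28.4% of all genes). OGFRL1 2 lay above OGFRL1 1 by a median of 0.73 on the log2 scale, against 0.02 over all genes. Psmb9, a subunit of the immunoproteasome, was at 1163 and 466 against 307 and 525 (-0.87 ± 0.44, limma adjusted p = 0.417). Tap2, a subunit of the peptide transporter that loads MHC class I, was at 234 and 116 against 79.0 and 134, and B2m, the class I light chain, at 11622 and 9104 against 7149 and 7550.0 (-0.49 ± 0.17, adjusted p = 0.245). Outside the naming rule and chosen after its values were seen, the chemokine Cxcl9 was at 1236 and 149 against 53.7 and 591, the widest spread of the list. Without EGFP 1 the median log2 difference of this list went from -0.45 to 0.26.

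Targets known mainly from type I interferon moved less between the EGFP arrays. Over 19 tested genes of 22 the median of EGFP 1 minus EGFP 2 was 0.26 on the log2 scale, against 1.53 for the members. EGFP 1 was the highest array in 12, 12 were lower in OGFRL1, and 0 genes passed in either direction. Ifit1 was at 140.1 and 88.5 against 62.9 and 64.7 (-0.77 ± 0.25, limma adjusted p = 0.214) and Rtp4 at 898 and 513 against 489 and 489. Ddx58 went the other way, at 200 and 220 against 255 and 247. The difference between the lists was not tested.

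**Figure D4:**
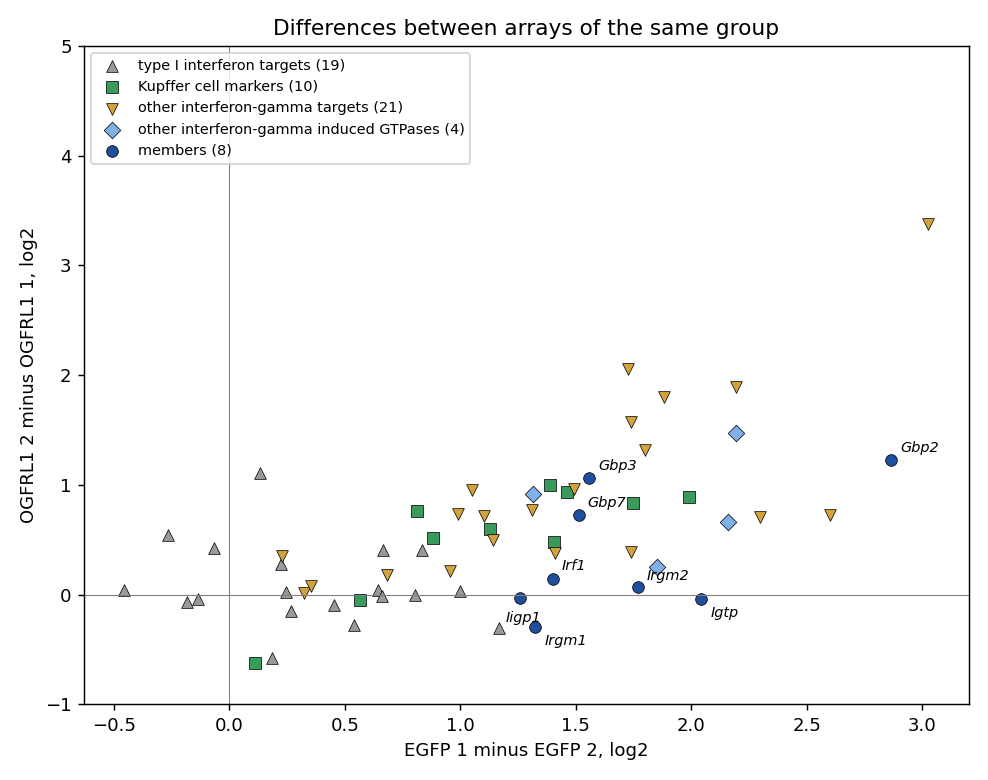
Each point is a tested gene, placed by its log2 difference between the EGFP arrays (x) and between the OGFRL1 arrays (y), for the members, 2 related lists, type I interferon targets and Kupffer cell markers. The IRG members lie near 0 on the y axis and the GBP members between 0.73 and 1.23, while all members lie above 1.2 on the x axis.

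Some markers of immune cells were also high on EGFP 1, and others were not. Of 10 Kupffer cell markers, genes of the resident liver macrophage, all were tested and EGFP 1 was the highest array in 8, with a summed signal of 11553 and 5126 in EGFP livers and 5953 and 9952 in OGFRL1 livers. Adgre1, which encodes the macrophage antigen F4/80, was at 507 and 149 against 154 and 276, and Timd4 at 189 and 44.9 against 42.8 and 82.0. In 7 of the 10, EGFP 1 was highest and OGFRL1 2 second, as in the GBP members, an order whose share over all genes was not computed. The others differed: Cd163, with the largest moderated t of the list, was at 29.1 and 18.5 against 39.4 and 38.1 (0.66 ± 0.28, limma adjusted p = 0.344). Marco was lowest on OGFRL1 2 (19.6 and 17.9 against 15.2 and 8.66), and Csf1r, named after its values were seen, was highest there (3204 and 1823 against 2028 and 3434). Markers of natural killer cells had summed signals of 193 and 94.9 against 81.6 and 134.9 over 10 of 11 genes with a probe set, 5 of them above the filter, and EGFP 1 was the highest array in 3 of these 5. Nkg7 was at 29.4 and 11.5 against 3.79 and 11.9. Prf1, which encodes the pore-forming perforin, was lowest on EGFP 1 (6.96 and 14.7 against 10.9 and 18.0), and Klrd1 was highest on OGFRL1 2 (16.6 and 11.2 against 10.3 and 20.6). Gzma, a granule protease of these cells, was at 58.1 and 18.1 against 23.2 and 30.7, and Ncr1, a defining receptor, was below the filter at 20.8 and 4.80 against 4.94 and 12.01. Of 10 T cell markers 7 were below the filter, and the 3 tested were lower in OGFRL1 livers (44.4% of all genes), with 0 called. Themis was at 34.2 and 21.4 against 22.5 and 13.9, Cd8a at 9.26 and 25.9 against 13.9 and 2.14. Lat was at 14.6 and 17.7 against 12.1 and 14.2. Below the filter, Cd3e, a chain of the T cell receptor complex, was at 6.77 and 5.31 against 5.31 and 13.5. Ncr1 and Cd3e were named after their values were seen. T cell markers summed to 98.96 and 104 against 76.0 and 69.4, and B cell markers to 88.8 and 44.5 against 57.7 and 81.4. No marker had a signal of exactly 0. Recruited macrophage markers had their highest sum on OGFRL1 2 (1646 and 1007 against 1834 and 2473), with EGFP 1 the highest array in 2 of 8 tested, and hepatocyte markers summed to 65018.5 and 45389 against 35418 and 39212, EGFP 1 being the highest array in 5 of 5 (28.4% of all genes) and both OGFRL1 arrays lying below both EGFP arrays in 5 (20.5% of all genes). Endothelial markers summed to 1745 and 1657 against 1498 and 1568, and stellate cell markers to 3745 and 3121 against 3944 and 4976. The part of these cells in the members' values was not tested.

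By distance between centred log2 values over the 4 arrays, the genes most like the mean profile of the members were Ifi47 (0.27), Tap1 (0.30), Tmprss4 (0.37), Psmb9 (0.41), Il1r1 (0.49) and AW112010 (0.50), where the median distance of all other genes was 1.60. Tap1 encodes the partner of Tap2 in the peptide transporter and was at 363 and 106 against 109 and 143. Il1r1, the interleukin-1 receptor, was at 392 and 167 against 151 and 187. Of the 44 genes at least 2-fold higher on EGFP 1 than on every other array, 8 were members, 3 were other interferon-gamma induced GTPases and 5 were other interferon-gamma targets, namely Cxcl9, Cxcl10, Cxcl11, Tap1 and Psmb9. The remaining lists held 2, the Kupffer marker Timd4 and the natural killer marker Nkg7, and 26 were in no list. Among those 26, named after their values were seen, were the chemokines Cxcl13 (1150.2 on EGFP 1 and at most 296 elsewhere) and Ccl5 (165 and at most 49.3), and the nucleic acid sensor Zbp1 (213 and at most 102).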

How the data were processed

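The members, the lists and the tests were chosen with earlier results of these data known. The authors deposited linear signal intensities made with MAS5, per the submitters' processing notes, with settings not given in the sources used here. Each array's mean without the lowest and highest tails was 100.001, so arrays were scaled as a whole. Symbols came from the platform annotation: 34945 of 45101 probe sets had 1 symbol, 932 several, 9160 none and 64 were controls.

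Signals were turned into log2(signal + 3.51), where 3.51 is the 25th percentile of all values, so differences of dim genes are understated. Each gene was represented by its brightest probe set and kept at a mean signal of at least 11.6, the median over probe sets. limma 3.58.1 in R 4.3.3 (lmFit, eBayes with an intensity trend, 2-sided) gave differences, OGFRL1 minus EGFP, with Benjamini-Hochberg adjustment over 11942 genes and a threshold of 0.05. The fit, with 2 residual degrees of freedom, was tested on simulated data. Figures were drawn with matplotlib 3.10.9 in Python 3.11.15. With 2 arrays per group their number limits the precision.

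Named genes are all members, up to 5 of each list by absolute moderated t, the interferon-gamma receptor and kinase genes, and the 6 genes closest to the members' profile; others are said to be chosen after their values were seen. Alternatives were quantile and median scaling, 4 times the pseudocount, a floor, no and a stricter filter, the mean over probe sets, no trend, the replicate number as a block, and each array left out.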

Additional observations from a re-analysis of the deposited data

How the results depend on the processing

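In the settings that keep all arrays, each of the 8 members kept its direction (80 values, 0 reversed). None was called there, apart from the crossed pairing below. Changing the filter, the trend or the block leaves a member's estimate as it is, so those settings could not have reversed a direction. Deviations of same-numbered arrays correlated at -0.28. The labels do not say that the numbers mark a shared animal or day, and with the replicate number as a block limma called 59 genes and 0 members. A crossed pairing, chosen after seeing the data, called 934 of the 11942 genes tested and 6 of the 8 members. Over all genes, limma called 61 as reported, 4 after quantile normalization, 94 with 4 times the pseudocount, 21 under the stricter filter, 13 with the mean over probe sets, and 0 without a filter or without a trend (2179 and 1654 at an unadjusted p under 0.05). Leaving out one array gave 0 to 856 genes (the 0 without OGFRL1 1, where 922 had an unadjusted p under 0.05), 0 to 8 members, 0 to 10 member probe sets and a member median of -1.71 to -0.14. The highest counts came without EGFP 2 and the lowest median size without EGFP 1. Only Gbp2 reversed, at 1.05 without EGFP 1 and 0.23 without OGFRL1 1, against -1.81 without EGFP 2. The median difference of the members (-0.88) was smaller in size than their median gap between the EGFP arrays (1.53). How small a change 2 arrays per group can resolve was not computed.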

Other observations

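Genes of ATG8 conjugation, the autophagy system that places IRG and GBP proteins on the right membranes, had another pattern than the members. All 10 genes were tested, all 10 were lower in OGFRL1 livers (44.4% of all genes) and the groups did not overlap in 8 (20.5% of all genes), with a median log2 difference of -0.31, but 0 passed the threshold (limma). Their median difference between EGFP 1 and EGFP 2 was 0.05, against 1.53 for the members, and without EGFP 1 their median was -0.35. Gabarapl1, a member of the ATG8 family, came closest at 1484 and 1669 in EGFP livers and 857 and 694 in OGFRL1 livers (-1.03 ± 0.16, limma adjusted p = 0.0554). Atg5 was at 383 and 357 against 288 and 245, and Atg16l1 at 178 and 175 against 126 and 128. Bright spike-in controls were also lower on the OGFRL1 arrays, and their part in these values was not tested.

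Genes that drive interferon-gamma production were mostly dim. Of 11 names 10 had a probe set and 4 passed the filter, with 0 called. Il18, which induces interferon-gamma together with interleukin-12, was at 303 and 220.1 in EGFP livers and at 191 and 179 in OGFRL1 livers (-0.47 ± 0.19, limma adjusted p = 0.312). Il15, the survival factor of natural killer cells, was at 32.7 and 11.5 against 25.02 and 26.96, so that EGFP 2 was the array that stood apart.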
